A study of Mus musculus with 15 samples.

Results

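Major histocompatibility complex (MHC) class I presentation was followed through 10 genes of 48795 in the deposited tables: the heavy chains H2-K1 and H2-D1, their light chain B2m, the transporter genes Tap1 and Tap2, the loading factor Tapbp, the immunoproteasome subunits Psmb8, Psmb9 and Psmb10, and the class I transactivator Nlrc5. They were taken by symbol, and all 10 had reads in the tables and passed the filter on low counts. RNA came from ears of 5-week-old female mice, in a skin inflammation model in which the irritant phorbol 12-myristate 13-acetate (PMA) activates protein kinase C. The groups were Control (n = 5 libraries), PMA_ethanol (n = 4), which the labels describe as PMA with ethanol, and PMA_1002 (n = 6), PMA with 1002, an innate defense regulator peptide according to the series title. The question was how the peptide altered PMA-induced inflammation. The label of the peptide group does not name ethanol, so peptide and vehicle cannot be told apart. The sources used here do not give the strain, the doses, the times or any treatment of control ears. The labels do not tie each library to its own animal, and the spread behind every p-value is that between libraries, which may be technical.

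Class I molecules display peptides from inside the cell to CD8+ T cells, and are read by inhibitory receptors of natural killer cells. Proteasomes cut proteins into peptides, the TAP transporter carries the peptides into the endoplasmic reticulum, and tapasin bridges the transporter to heavy chains waiting for a peptide. Interferons are known to raise most of these genes, partly through IRF1 and NLRC5, and nuclear factor kappa B (NF-kB) acts on heavy chain promoters.

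Reads in genes ran from 2656680 to 28585995 per library, with a median of 6042856. Levels are counts-per-million values (CPM) relative to library sizes scaled by TMM (trimmed mean of M-values), and fold changes come from edgeR's quasi-likelihood test over 14991 genes. A gene was called at a Benjamini-Hochberg adjusted p under 0.05. Of all tested genes 68.4% were called between PMA_ethanol and Control, 35% between PMA_1002 and PMA_ethanol, and 55% between PMA_1002 and Control. The keratinocyte, fibroblast, cartilage, muscle and hair follicle markers of ear skin all had reads, although Matn1 of the cartilage list had none in Control and PMA_1002. Summed CPM of 6 pan-leukocyte markers lay between 172 and 233 in Control, 884 and 1054 in PMA_ethanol, and 338 and 470 in PMA_1002. The 9 neutrophil markers summed to 15.1 to 26.4, 1036 to 2390 and 228 to 477 in the same order, with Ngp and Ltf at 0 in Control. The 6 keratinocyte markers summed to 21810 to 28230, 12750 to 16650 and 24820 to 28110. The 9 monocyte and macrophage markers summed to 558 to 745, 1426 to 1972 and 941 to 1245, but did not move as 1 set. In PMA_ethanol against Control 5 of them were called higher, 1 lower and 3 not called. Over all tested genes 32.5% were called higher and 35.9% lower. Mean CPM went from 234 in Control to 746 in PMA_ethanol for Lyz2 and from 118 to 483 for Mrc1. For C1qa it went from 51.49 to 31.25. Within PMA_ethanol the hair follicle markers summed to 14.9 to 3146 and the muscle markers to 370 to 2190. In Control these sums ran from 41.6 to 3029 and from 597 to 1871, and in PMA_1002 from 7.12 to 1027 and from 697 to 1393. In bulk tissue a change in the number of cells of a type and a change in RNA per cell cannot be told apart, and the part of these shifts in the results was not tested.

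Most of the machinery was higher in PMA_ethanol than in Control, and the peptide group mean lay between the other 2 for 8 of the 10 genes, all but Tap1 and Psmb9. Between PMA_ethanol and Control, 7 of the 10 genes were called higher (H2-K1, H2-D1, Tap2, Tapbp, Psmb8, Psmb10 and Nlrc5) and 0 lower, against a background of 32.5% of genes called higher and 35.9% lower. The total share called, 7 of 10, is near the background of 68.4%. The median log2 fold change was 0.63 over the 10 genes and -0.07 over all tested genes. Between PMA_1002 and PMA_ethanol, 3 were called lower (H2-K1, H2-D1 and Tapbp) and 0 higher, against 18% of genes called lower and 17% higher, and all 10 estimates were negative with a median of -0.36, against 0.03 over all genes. Between PMA_1002 and Control, 4 were called higher (Tap2, Tapbp, Psmb10 and Nlrc5) and Psmb9 lower, against 28.4% and 26.7% of genes, with medians of 0.27 and -0.03. The 3 comparisons share libraries. The panels of CPM by library and the plot of fold changes show these values for each gene.

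**Figure D1:**
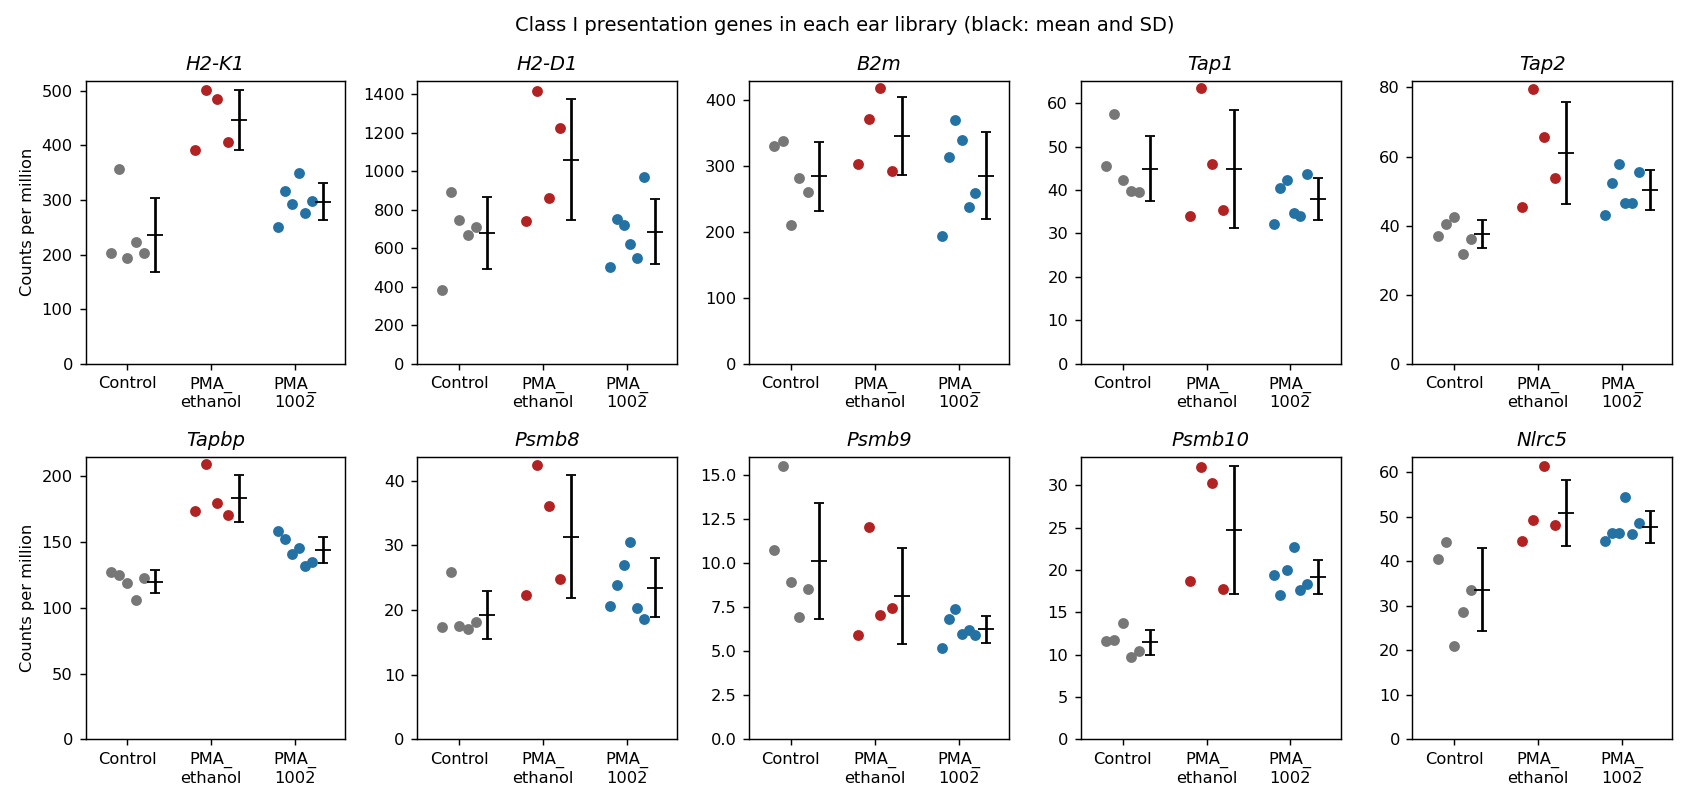
Counts-per-million values (vertical axes, starting at 0) of the 10 genes in each library of Control (n = 5), PMA_ethanol (n = 4) and PMA_1002 (n = 6); points are libraries and black marks give the mean and SD. All 4 PMA_ethanol libraries lie above all 5 Control libraries for H2-K1, Tap2, Tapbp, Psmb10 and Nlrc5, while the ranges overlap for the other 5 genes.

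**Figure D2:**
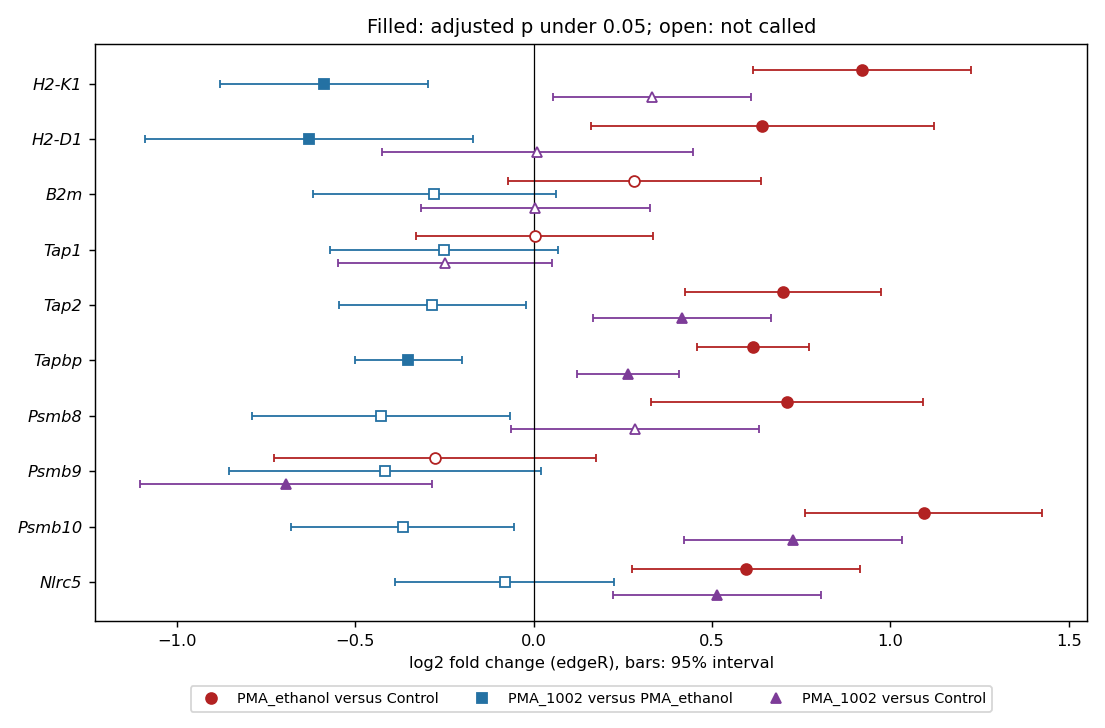
Log2 fold change (horizontal axis) of each gene in the 3 comparisons with its 95% interval; filled symbols were called at an adjusted p under 0.05. The 7 filled circles right of 0 are the genes higher in PMA_ethanol than Control, and the 3 filled squares left of 0 are H2-K1, H2-D1 and Tapbp, lower in PMA_1002 than PMA_ethanol.

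Levels differed widely within the pathway. Per kilobase (kb) of annotated exon, the mean level in Control was 331 CPM for B2m, 264 for H2-D1, 80.3 for H2-K1 and 33.1 for Tapbp. Tap2 (9.93), Tap1 (8.20), Psmb10 (6.72), Psmb8 (5.68), Nlrc5 (3.95) and Psmb9 (2.77) formed a lower tier in which each gene's range over libraries overlapped that of the next. In PMA_ethanol the order of the means was H2-D1 (411 CPM per kb), B2m (403), H2-K1 (152), Tapbp (50.6), Tap2 (16.2), Psmb10 (14.5), Psmb8 (9.28), Tap1 (8.17), Nlrc5 (5.98) and Psmb9 (2.22). H2-D1 and B2m overlapped in range in all 3 groups. Tap1 thus ranked 6 of 10 in Control and 8 of 10 in PMA_ethanol and PMA_1002. With the length of the longest protein-coding transcript in place of all exons, Tap1 ranked 5 in Control and 8 in the other groups, and 4 of 10 genes kept their rank in Control. In PMA_1002 the means per kb were 332 CPM for B2m, 266 for H2-D1, 101 for H2-K1, 39.7 for Tapbp, 13.3 for Tap2, 11.2 for Psmb10, 6.95 for Psmb8, 6.92 for Tap1, 5.61 for Nlrc5 and 1.71 for Psmb9.

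The heavy chain gene H2-K1 (ENSMUSG00000061232, chromosome 17, 33996017 to 34000347, minus strand, GRCm38) encodes the peptide-binding chain of K molecules. Its CPM in Control libraries 1 to 5 were 204, 356, 194, 222 and 204. In PMA_ethanol libraries 1 to 4 they were 392, 501, 485 and 407. PMA_1002 libraries ran from 250 to 350 with a median of 295. All PMA_ethanol libraries were above all Control and all PMA_1002 libraries, and Control library 2 stood above the other controls. H2-K1 rose by a log2 fold change of 0.92 (SE 0.16, adjusted p = 5.91e-05, edgeR) in PMA_ethanol, a 1.89-fold difference. It was lower in PMA_1002 than in PMA_ethanol by -0.59 (SE 0.15, adjusted p = 0.0057). Its difference between PMA_1002 and Control was 0.33 (95% interval 0.06 to 0.61, adjusted p = 0.0561), and passed the threshold in 6 of 18 alternative settings, among them the fits without Control library 2 and without PMA_1002 library 1.

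The D heavy chain gene H2-D1 (ENSMUSG00000073411, chromosome 17, 35262730 to 35267499, plus strand) encodes the second classical heavy chain. Its CPM in Control were 383, 890, 747, 668 and 712. In PMA_ethanol they were 739, 1417, 859 and 1223. The PMA_1002 range was 503 to 969 with a median of 670. The groups overlapped, and the 4 PMA_ethanol libraries were themselves split, libraries 2 and 4 above 1 and 3. H2-D1 rose by 0.64 (SE 0.25, adjusted p = 0.0305) in PMA_ethanol and was lower in PMA_1002 than in PMA_ethanol by -0.63 (SE 0.23, adjusted p = 0.0492). The first call was lost in 7 of 16 alternatives (adjusted p up to 0.17), among them the fits without Control library 1 or 4 and without PMA_ethanol library 2 or 4. The second, lost also with both other scalings, was lost in 11 of 17 (adjusted p up to 0.181), among them the fits without any of PMA_ethanol libraries 2 to 4 and PMA_1002 libraries 1 to 5. PMA_1002 and Control differed by 0.01 (95% interval -0.43 to 0.45).

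The spread of H2-D1 within groups moved with H2-T22, a nonclassical heavy chain gene of the same chromosome that was singled out after its values were seen. H2-T22 was at 28.3 CPM in Control library 1, which held the lowest H2-D1 of its group, and at 2.17 to 5.68 in the other 4. In PMA_ethanol it was at 14.3 and 21.2 in libraries 1 and 3, with H2-D1 at 739 and 859, and at 2.67 and 2.15 in libraries 2 and 4, with H2-D1 at 1417 and 1223. In PMA_1002 it was at 2.71 in library 6, which held the highest H2-D1 (969), and at 10.8 to 24.7 in the other 5, where H2-D1 lay between 503 and 752. H2-T22 was thus above 10 CPM in 1 of 5 Control, 2 of 4 PMA_ethanol and 5 of 6 PMA_1002 libraries, and it was called in none of the 3 comparisons (log2 fold change of 0.07 with SE 0.90 in PMA_ethanol against Control, adjusted p = 0.952). The log2 ratio of H2-K1 to H2-D1 reads ran from -0.92 to -0.82 in PMA_ethanol libraries 1 and 3 and from -1.59 to -1.50 in libraries 2 and 4. H2-Q10, another nonclassical gene singled out after its values were seen, was at 34.97 and 31.5 CPM in PMA_ethanol libraries 1 and 3 and at 3.20 and 3.43 in libraries 2 and 4. It was at 1.15 to 4.34 in Control and 4.58 to 9.24 in PMA_1002. Reads of all libraries were counted on 1 reference genome and the strain is not given, so whether the libraries carried the same H2 alleles is not known, and levels of H2 genes are read with that limit. The part of this split in the H2-D1 fold changes was not tested.

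**Figure D3:**
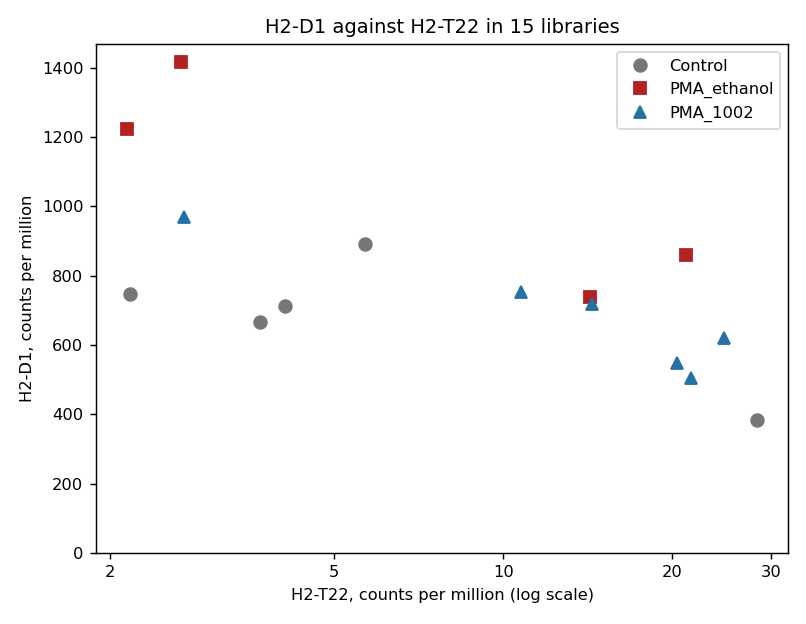
Counts-per-million values of H2-D1 (vertical axis, from 0) against those of H2-T22 (horizontal axis, log scale) in each of the 15 libraries, by group. In each group the libraries with H2-T22 under 6 CPM hold more H2-D1 than those above 10 CPM, for example 969 against 503 to 752 in PMA_1002.

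The light chain gene B2m (ENSMUSG00000060802, chromosome 2, 122147686 to 122153083, plus strand) encodes beta-2 microglobulin, which pairs with classical class I heavy chains. Its CPM were 331, 338, 210, 281 and 261 in Control and 304, 371, 418 and 292 in PMA_ethanol. Levels in PMA_1002 ran from 193 to 369 with a median of 286. All 3 groups overlapped. The log2 differences were 0.28 in PMA_ethanol against Control (95% interval -0.07 to 0.64, adjusted p = 0.177), -0.28 in PMA_1002 against PMA_ethanol (-0.62 to 0.06, adjusted p = 0.235) and 0.00 in PMA_1002 against Control (-0.32 to 0.33, adjusted p = 0.986).

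The sequences before the starts of these 3 genes are shown because class I promoters are known to combine NF-kB, interferon and NLRC5-dependent elements. RefSeq windows (GRCm38.p6) were held for 8 of the 10 genes, Tap2 and Nlrc5 being the others, and each covers the 250 bases before the RefSeq start, 5′ to 3′ on the gene's strand. Capitals mark matches, on either strand, to the interferon-stimulated response element core (GAAA, any 2 bases, GAAA), the gamma-activated site TTCNNNGAA, the cyclic AMP response element core TGACG, the CCAAT box and a loose NF-kB pattern (GGG, any 5 bases, CC). No match overlapped one of another pattern. The H2-K1 window is chr17:34000348-34000597, minus strand, that of H2-D1 is chr17:35262844-35263093, plus strand, and that of B2m is chr2:122147437-122147686, plus strand.
H2-K1: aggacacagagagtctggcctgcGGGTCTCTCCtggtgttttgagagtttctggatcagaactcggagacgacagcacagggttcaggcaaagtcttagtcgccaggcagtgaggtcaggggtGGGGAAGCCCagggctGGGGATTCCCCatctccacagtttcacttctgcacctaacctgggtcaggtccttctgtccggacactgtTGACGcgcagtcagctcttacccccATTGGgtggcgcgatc
H2-D1: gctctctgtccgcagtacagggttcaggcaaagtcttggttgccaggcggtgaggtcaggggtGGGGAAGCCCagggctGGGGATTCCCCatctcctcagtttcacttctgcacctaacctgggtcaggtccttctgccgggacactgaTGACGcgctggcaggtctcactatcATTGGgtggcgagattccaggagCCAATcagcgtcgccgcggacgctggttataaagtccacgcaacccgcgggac
B2m: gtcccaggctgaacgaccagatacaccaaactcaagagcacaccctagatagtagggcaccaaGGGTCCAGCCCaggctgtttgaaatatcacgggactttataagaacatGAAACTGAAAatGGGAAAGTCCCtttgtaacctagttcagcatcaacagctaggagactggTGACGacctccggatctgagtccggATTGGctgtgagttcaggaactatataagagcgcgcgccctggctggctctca
All 3 hold TGACG followed after 20 bases by ATTGG, an inverted CCAAT box. The pair starts 41 bases before the start in H2-K1, 101 in H2-D1 and 78 in B2m. This spacing, read from these windows, occurred in 30 of 32851 windows of the same length (0.0913%), from 26 genes. Among the 26 were these 3 genes, whose own windows set the spacing, and H2-M3, which is not one of the 10. No further gene of the 10 was among them. The run GGGGATTCCC stood in both heavy chain windows and not in that of B2m. By the strict letters searched, B2m held the only interferon response match, GAAACTGAAA. Looser forms of this element were not searched, so the heavy chain windows cannot be read as lacking one. The shares of all windows with a match were 2.98% for the interferon element, 7.02% for the gamma-activated site, 17.8% for TGACG, 33.8% for CCAAT and 45.8% for the NF-kB pattern. A match describes letters and no binding was measured here.

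The transporter genes parted. Tap2 (ENSMUSG00000024339, chromosome 17, 34203527 to 34216321, plus strand) encodes the second half-transporter of TAP. Its CPM were 37.1, 40.5, 42.4, 31.7 and 36.1 in Control and 45.4, 79.5, 65.5 and 53.8 in PMA_ethanol. With the peptide they ran from 43.0 to 57.9 with a median of 49.4. All libraries of both PMA groups were above all Control libraries. Tap2 rose by 0.70 (SE 0.14, adjusted p = 0.000283) in PMA_ethanol and by 0.42 (SE 0.13, adjusted p = 0.0109) in PMA_1002 against Control. The 2 PMA groups differed by -0.28 (95% interval -0.55 to -0.02, adjusted p = 0.111).

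Tap1 (ENSMUSG00000037321, chromosome 17, 34187553 to 34197225, plus strand) encodes the other half-transporter. Its CPM were 45.4, 57.5, 42.4, 39.8 and 39.5 in Control and 34.0, 63.5, 46.0 and 35.5 in PMA_ethanol. The 6 PMA_1002 libraries ran from 32.2 to 43.7 with a median of 37.6. The 3 groups overlapped, with PMA_ethanol library 2 above the rest. The log2 differences were 0.00 in PMA_ethanol against Control (95% interval -0.33 to 0.34, adjusted p = 0.987), -0.25 in PMA_1002 against PMA_ethanol (-0.57 to 0.07, adjusted p = 0.25) and -0.25 in PMA_1002 against Control (-0.55 to 0.05, adjusted p = 0.182). The sign of the first estimate changed with the scaling. With upper-quartile scaling Tap1 was called lower in PMA_1002 than in Control (-0.41, adjusted p = 0.036).

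Tapbp (ENSMUSG00000024308, chromosome 17, 33915899 to 33929292, plus strand) encodes tapasin, which holds empty class I molecules at the transporter and edits their peptides. Its CPM were 128, 125, 119, 106 and 123 in Control and 174, 210, 180 and 171 in PMA_ethanol. The PMA_1002 libraries spanned from 132 to 159 with a median of 143. No ranges overlapped: Control was lowest, PMA_1002 between and PMA_ethanol highest. Tapbp rose by 0.62 (SE 0.08, adjusted p = 3.16e-06) in PMA_ethanol and was lower in PMA_1002 than in PMA_ethanol by -0.35 (SE 0.08, adjusted p = 0.00197). PMA_1002 stayed above Control by 0.27 (SE 0.07, adjusted p = 0.0055). H2-K1 and Tapbp were the members of the 10 apart in range between PMA_1002 and PMA_ethanol, where 24.1% of all tested genes were. There 11% of genes were apart and higher and 13% apart and lower. Between PMA_ethanol and Control 5 of the 10 were apart, all higher, against 57.8% of genes (28.2% higher, 29.6% lower). Between PMA_1002 and Control 4 were apart, all higher, against 36.7% (20.2% higher, 16.5% lower).

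The immunoproteasome subunits replace the catalytic subunits of the constitutive proteasome and change which peptides are cut. Psmb10 (ENSMUSG00000031897, chromosome 8, 105935735 to 105938444, minus strand) replaces Psmb7. Its CPM were 11.6, 11.7, 13.7, 9.71 and 10.5 in Control and 18.7, 32.1, 30.3 and 17.7 in PMA_ethanol. Peptide-group values ran from 17 to 22.7 with a median of 18.8. All libraries of both PMA groups were above Control. Psmb10 rose by 1.09 (SE 0.17, adjusted p = 2.18e-05), a 2.13-fold difference and the largest of the 10, in PMA_ethanol, and by 0.73 (SE 0.16, adjusted p = 0.000849) in PMA_1002 against Control. The PMA groups differed by -0.37 (95% interval -0.68 to -0.05, adjusted p = 0.0847).

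Psmb8 (ENSMUSG00000024338, chromosome 17, 34197721 to 34201454, plus strand) replaces Psmb5. Its CPM were 17.3, 25.8, 17.5, 17.1 and 18.2 in Control and 22.3, 42.4, 36.1 and 24.7 in PMA_ethanol. PMA_1002 values ran from 18.6 to 30.5 with a median of 22.3. Control library 2 lay within the range of both PMA groups. Psmb8 rose by 0.71 (SE 0.19, adjusted p = 0.00383) in PMA_ethanol. The difference was -0.43 (95% interval -0.79 to -0.06, adjusted p = 0.084) between PMA_1002 and PMA_ethanol and 0.28 (-0.06 to 0.63, adjusted p = 0.189) between PMA_1002 and Control.

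Psmb9 (ENSMUSG00000096727, chromosome 17, 34181987 to 34187764, minus strand) replaces Psmb6 and was the member called lower in PMA_1002 than in Control. Its CPM were 10.8, 15.5, 8.91, 6.93 and 8.52 in Control and 5.92, 12.0, 7.05 and 7.44 in PMA_ethanol. Values in PMA_1002 ran from 5.20 to 7.38 with a median of 6.09. The groups overlapped. Psmb9 fell by 0.69 on the log2 scale (SE 0.21, adjusted p = 0.00964) in PMA_1002 against Control, and its adjusted p stayed between 0.00251 and 0.0416 in all 18 alternatives. In PMA_ethanol against Control the difference was -0.28 (95% interval -0.73 to 0.18, adjusted p = 0.298), and without PMA_ethanol library 2 it was -0.57 (adjusted p = 0.0349). PMA_1002 and PMA_ethanol differed by -0.42 (-0.85 to 0.02, adjusted p = 0.161). Psmb9 had 1153 reads in all libraries together, the fewest of the 10.

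Tap1 and Psmb9, neither called in PMA_ethanol against Control, lie head to head. Their RefSeq starts are 226 bases apart on opposite strands, and 225 of the 250 bases before each start are the same DNA. The Tap1 window (chr17:34187306-34187555, plus strand) is shown because most of it lies before both starts, with capitals as above.
Tap1: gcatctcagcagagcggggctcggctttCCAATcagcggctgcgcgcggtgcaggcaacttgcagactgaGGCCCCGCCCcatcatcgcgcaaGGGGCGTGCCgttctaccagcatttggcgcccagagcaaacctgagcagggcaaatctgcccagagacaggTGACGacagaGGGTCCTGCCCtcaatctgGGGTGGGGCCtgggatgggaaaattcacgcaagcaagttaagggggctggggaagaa
It held 1 TGACG and 1 CCAAT match and several of the NF-kB pattern, but no interferon element by these letters. The annotated exons of the 2 genes overlap by 212 bases on opposite strands. Whether counting used strand is not given, so reads there cannot be assigned. Psmb8 held the only gamma-activated match, TTCCCAGAA, and the Tapbp window held 2 CCAAT boxes and no other match.

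Nlrc5 (ENSMUSG00000074151, chromosome 8, 94434356 to 94527272, plus strand) encodes the transactivator that joins the promoter complex of class I genes. Its CPM were 40.6, 44.3, 20.9, 28.5 and 33.5 in Control and 44.6, 49.2, 61.4 and 48.1 in PMA_ethanol. The peptide libraries ran from 44.5 to 54.4 with a median of 46.3. Every library of both PMA groups was above every Control library, by a narrow margin over library 2. Nlrc5 rose by 0.60 (SE 0.16, adjusted p = 0.00385) in PMA_ethanol and by 0.51 (SE 0.15, adjusted p = 0.00747) in PMA_1002 against Control. The PMA groups differed by -0.08 (95% interval -0.39 to 0.22, adjusted p = 0.733).

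The scaling of the libraries set some of these calls. With upper-quartile scaling in place of TMM the median of all tested genes moved by -0.24 in PMA_ethanol against Control and by -0.16 in PMA_1002 against Control. With no scaling beyond the library total it moved by -0.23, -0.12 and, in PMA_1002 against PMA_ethanol, 0.11. The share of called genes that were higher moved from 47.5% to 33.6% (upper quartile) and 34.0% (no scaling) in PMA_ethanol against Control, from 51.5% to 34.6% and 38.6% in PMA_1002 against Control, and from 48.7% to 61.8% and 67.4% in PMA_1002 against PMA_ethanol. Both settings ended the calls of H2-D1 and Nlrc5 in the first comparison and of Tap2 and Tapbp in PMA_1002 against Control, and upper-quartile scaling also that of Nlrc5 there. A change of scaling moves all genes of a comparison by nearly the same amount. Values relative to the median of all genes therefore had to stay nearly the same. Tap2 in PMA_1002 against Control was 0.44 above the median with TMM and 0.45 with upper-quartile scaling, and Tapbp 0.29 with both. These values cannot tell which scaling is right or whether the lost calls stand.

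Ratios of genes within a library do not depend on its scaling. The log2 ratio of read counts was compared for 11 pairs in 3 comparisons (33 two-sided exact permutation tests, Benjamini-Hochberg adjusted over all 33, pseudocount 0.5). The smallest p the design allows is 0.00794 for PMA_ethanol against Control, 0.00476 between the PMA groups and 0.00216 for PMA_1002 against Control. In the first comparison 6 pairs passed, in the second 1 and in the third 7.

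**Figure D4:**
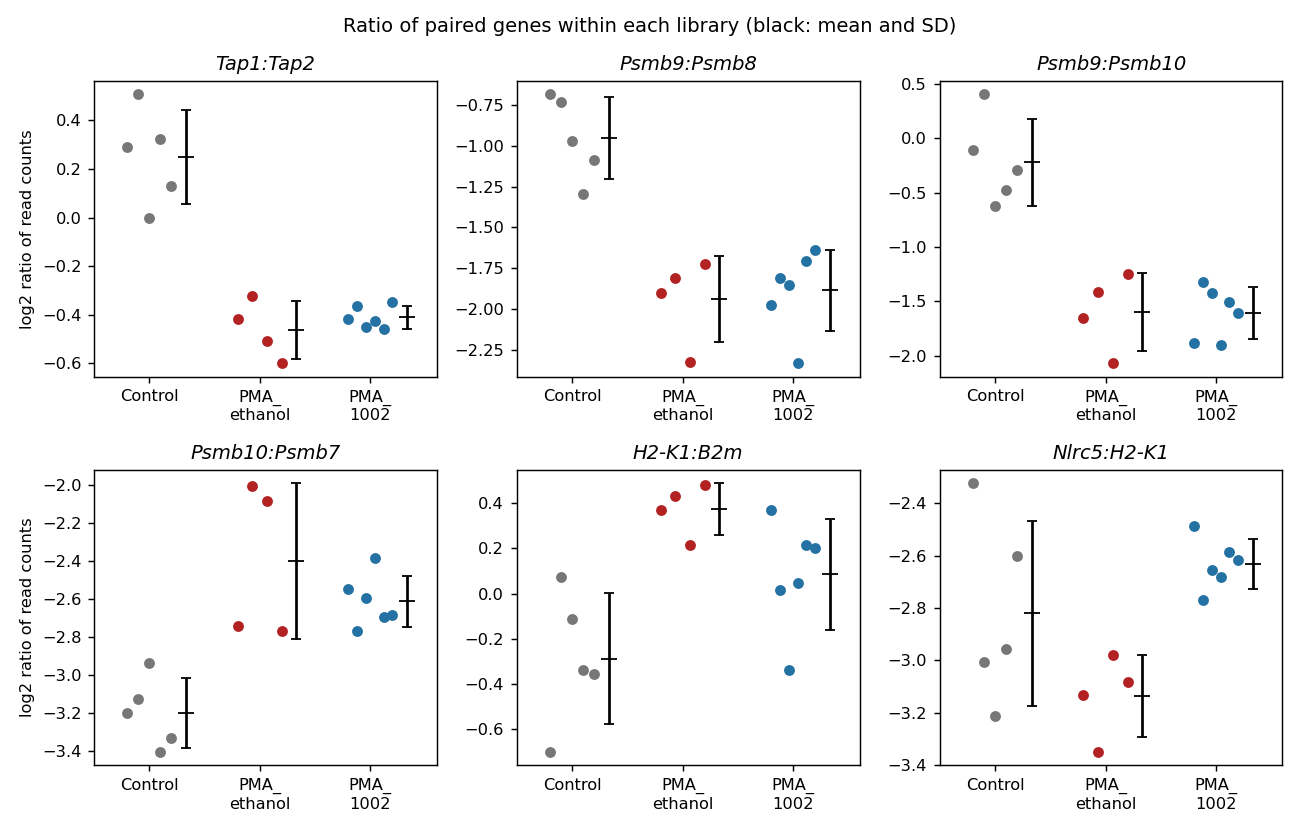
Log2 ratio of read counts (vertical axes) of 6 gene pairs in each library of the 3 groups; points are libraries and black marks give the mean and SD. The ratio of Tap1 to Tap2 lies at 0.00 or above in all Control libraries and below -0.32 in all libraries of both PMA groups.

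Tap1 to Tap2 shifted most uniformly. The ratio averaged 0.25 ± 0.19 (SD, n = 5) in Control, -0.46 ± 0.12 (n = 4) in PMA_ethanol and -0.41 ± 0.05 (n = 6) in PMA_1002. PMA_ethanol was 0.71 below Control on this scale (difference -0.71, exact permutation adjusted p = 0.0202) and PMA_1002 0.66 below (difference -0.66, exact permutation adjusted p = 0.0143), with no overlap in either case. The PMA groups differed by 0.05 (exact permutation adjusted p = 0.436). Tap1 to Tapbp shifted by -0.65 and -0.51 against Control (exact permutation adjusted p = 0.0202 for both).

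Within the immunoproteasome Psmb9 fell behind both partners. The log2 ratio of Psmb9 to Psmb8 averaged -0.95 ± 0.25 in Control, -1.94 ± 0.26 in PMA_ethanol and -1.89 ± 0.25 in PMA_1002. The differences from Control were -0.99 and -0.93 (exact permutation adjusted p = 0.0202 and 0.0143). For Psmb9 to Psmb10 they were -1.37 and -1.39 (exact permutation adjusted p = 0.0202 and 0.0143), with a difference of -0.01 between the PMA groups (exact permutation adjusted p = 0.943). Each subunit was also set against the constitutive subunit it replaces. Psmb10 to Psmb7 rose by 0.80 and 0.59 (exact permutation adjusted p = 0.0202 and 0.0143). Psmb8 to Psmb5 differed by 0.33 and 0.13 (exact permutation adjusted p = 0.34 and 0.569). Psmb9 to Psmb6 differed by -0.60 (exact permutation adjusted p = 0.154) in PMA_ethanol and fell by 0.84 (difference -0.84, exact permutation adjusted p = 0.0143) in PMA_1002.

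H2-K1 and B2m did not keep step between PMA_ethanol and Control, and H2-D1 was not set against B2m. The log2 ratio of H2-K1 to B2m was 0.66 higher in PMA_ethanol than in Control (exact permutation adjusted p = 0.0374) and 0.37 higher in PMA_1002 (exact permutation adjusted p = 0.1). The PMA groups differed by -0.29 in it (exact permutation adjusted p = 0.108). The limit on H2 alleles given above applies here too. Nlrc5 to H2-K1 was the pair that passed between the PMA groups, at -3.14 ± 0.16 in PMA_ethanol and -2.63 ± 0.10 in PMA_1002 (difference 0.50, exact permutation adjusted p = 0.0202). Tap1 to Psmb9 was 0.40 higher in PMA_1002 than in Control (exact permutation adjusted p = 0.0202), and H2-K1 to H2-D1 passed in none. Without any PMA_ethanol library in turn, no pair passed in the comparisons of that group, since 3 libraries allow no p below 0.0179 against Control. The difference of Tap1 to Tap2 then ran from -0.76 to -0.67.

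The rest of the pathway was read from 7 lists of 86 genes. The loading chaperones and peptidases were called higher for 8 of 11 and lower for 0 in PMA_ethanol against Control, with a median of 0.36. Over all tested genes 32.5% were called higher and 35.9% lower, and the total of 8 of 11 is near the 68.4% called in either direction. Tpp2 and Npepps, cytosolic peptidases, rose by 1.09 (SE 0.10, adjusted p = 3.74e-08) and 0.68 (SE 0.07, adjusted p = 1.31e-07). Erap1, which trims peptides in the endoplasmic reticulum, rose by 0.99 (SE 0.11, adjusted p = 3.98e-07), and Calr, the loading chaperone calreticulin, by 0.78 (SE 0.12, adjusted p = 2.07e-05). In PMA_1002 against PMA_ethanol 3 of 11 were lower, namely Tpp2 by -0.42, Calr by -0.45 and Erap1 by -0.37, against 18% of all genes. The call of Erap1 there was lost with no scaling beyond the library total (-0.26, edgeR adjusted p = 0.064). In PMA_1002 against Control 7 of 11 were higher, against 28.4% of all genes. Levels of Erap1 were 30.7 to 36.0 CPM in Control, 57.0 to 80.1 in PMA_ethanol and 43.9 to 58.9 in PMA_1002.

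The constitutive proteasome core was called higher for 12 of 14 genes in PMA_ethanol and 10 of 14 in PMA_1002 against Control, with medians of 0.32 and 0.22. Those of the 10 presentation genes were 0.63 and 0.27, the second close to that of the core. The shares of all genes called higher were 32.5% and 28.4%, and those called in either direction 68.4% and 55%. Psma3 rose by 0.53 (SE 0.07, adjusted p = 1.64e-06), Psmb4 by 0.56 and Psma5 by 0.47. Psmb5 (0.35), Psmb6 (0.28) and Psmb7 (0.27) also rose in PMA_ethanol, but all 3 calls were lost with upper-quartile scaling (adjusted p = 0.458, 0.511 and 0.63), and that of Psmb5 without Control library 1 or 4 or PMA_ethanol library 1 or 2. Of 9 activators and assembly factors 5 rose and 0 fell in PMA_ethanol, and likewise 5 and 0 in PMA_1002 against Control, no larger a share than the 68.4% and near the 55% of all genes called. Psme3, the nuclear activator, rose by 1.13 (SE 0.09, adjusted p = 5.64e-09) and 0.92. Psme1 and Psme2 form the interferon-inducible activator: Psme1 rose by 0.31 (SE 0.07, adjusted p = 0.000811), a call lost with upper-quartile scaling, and Psme2 differed by 0.09 (95% interval -0.14 to 0.32, adjusted p = 0.522). Pomp, which assembles new proteasomes, rose by 0.51 and was lower in PMA_1002 than PMA_ethanol by -0.29 (adjusted p = 0.00262). The second call was lost with no scaling beyond the library total (-0.18, edgeR adjusted p = 0.0536).

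Among 15 transcriptional regulators 11 were higher and 2 lower in PMA_ethanol against Control, and 5 were lower and 1 higher in PMA_1002 against PMA_ethanol. Over all genes 32.5% were higher and 35.9% lower in the first comparison, and 18% lower and 17% higher in the second, where the total of 6 of 15 is near the 35% called. The NF-kB subunits Nfkb1 and Rela rose by 2.82 (SE 0.11, adjusted p = 1.06e-12) and 1.88 (SE 0.08, adjusted p = 6.19e-12), and were lower with the peptide by -1.22 and -0.72. Irf1, an interferon-inducible activator of class I promoters, was at 18.6 to 21.8 CPM in Control, 80.5 to 117 in PMA_ethanol and 48.6 to 112 in PMA_1002. It rose by 2.31 (SE 0.20, adjusted p = 7.33e-08). The PMA groups differed by -0.38 (95% interval -0.75 to -0.02, adjusted p = 0.12), and by -0.52 without PMA_1002 library 6 (adjusted p = 0.0236). Rfx5, a subunit of the complex that recruits NLRC5, was lower in PMA_1002 than PMA_ethanol by -0.43 (SE 0.09, adjusted p = 0.00113).

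Ciita, the class II transactivator and relative of Nlrc5, took another course. It was at 10.4, 12.1, 14.1, 12.8 and 13.1 CPM in Control, 8.88, 15.3, 12.9 and 5.86 in PMA_ethanol, and 15.1 to 24.4 with a median of 18.9 in PMA_1002. PMA_1002 lay above all Control libraries and overlapped PMA_ethanol library 2 alone. Ciita was higher in PMA_1002 than in PMA_ethanol by 0.87 (SE 0.21, adjusted p = 0.00405) and than in Control by 0.65 (SE 0.19, adjusted p = 0.009), and differed by -0.22 (95% interval -0.65 to 0.21, adjusted p = 0.38) between PMA_ethanol and Control. Without PMA_ethanol library 2 that last difference was -0.52 (adjusted p = 0.0405). H2-Ab1, a class II chain named after its values were seen, differed by -0.01 (95% interval -0.22 to 0.19) between PMA_1002 and Control.

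Of 11 genes of interferon ligands, receptors and signalling 9 were tested, and the ligands Ifng and Ifnb1 were not. In PMA_ethanol against Control 8 were higher and 1 lower, with a median of 1.14. Over all genes 32.5% were higher and 35.9% lower. The lower gene was the kinase Tyk2, at a mean of 53.8 CPM in Control and 31.2 in PMA_ethanol. The kinase Jak2 rose by 2.70 (SE 0.14, adjusted p = 5.29e-11), the feedback inhibitor Socs1 by 3.34 (SE 0.15, adjusted p = 6.36e-12) and the receptor gene Ifnar1 by 1.08 (SE 0.06, adjusted p = 1.33e-10). All 3 were lower in PMA_1002 than PMA_ethanol, by -1.30, -1.17 and -0.50. Ifng, the ligand best known for raising these genes, was read 10 times in PMA_ethanol, 4 times in PMA_1002 and 0 times in Control, too few to test. Ifnb1 had 0 reads in all 15 libraries, which allows a level of up to 0.0212 CPM at 3 reads, counting error only.

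Of 18 nonclassical heavy chains 17 were tested, with 4 higher and 5 lower in PMA_ethanol against Control and a median of 0.04. Both counts are smaller shares than the 32.5% and 35.9% of all genes. H2-Q4 followed H2-K1, with a rise of 0.93 (SE 0.12, adjusted p = 2.06e-06) and a difference of -0.63 (SE 0.11, adjusted p = 0.000354) between the PMA groups. Mr1, which presents vitamin metabolites to invariant T cells, fell by 1.33 on the log2 scale (SE 0.18, adjusted p = 3.81e-06) in PMA_ethanol and by 0.85 (SE 0.15, adjusted p = 0.000149) in PMA_1002 against Control. H2-M5 fell by 1.93 (SE 0.32, adjusted p = 4.40e-05) in PMA_ethanol and was higher in PMA_1002 than PMA_ethanol by 1.21 (SE 0.31, adjusted p = 0.00569). Heavy chain genes share sequence: 8.79% of the 50-base words of the H2-K1 transcript and 14.3% of those of H2-D1 occur in other genes' transcripts, against 2.0% or less for the other 8, and the counting set reads with several positions apart. Of 8 receptors of class I molecules 7 were found in the tables and 3 were tested. Pirb, an inhibitory receptor of myeloid cells, rose by 1.84 (SE 0.09, adjusted p = 1.76e-11) and was lower with the peptide by -0.88 (SE 0.08, adjusted p = 5.93e-07). The CD8 chain gene Cd8a had 13 reads in all libraries together. It is 1 of 10 T and NK cell markers, which did not share its near absence. Their summed CPM ran from 29.8 to 55.1 in Control, 34.5 to 73.5 in PMA_ethanol and 27.1 to 42.2 in PMA_1002. In PMA_ethanol against Control 8 of them were tested, with 3 called higher and 0 lower, against 32.5% and 35.9% of all genes.

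**Figure D5:**
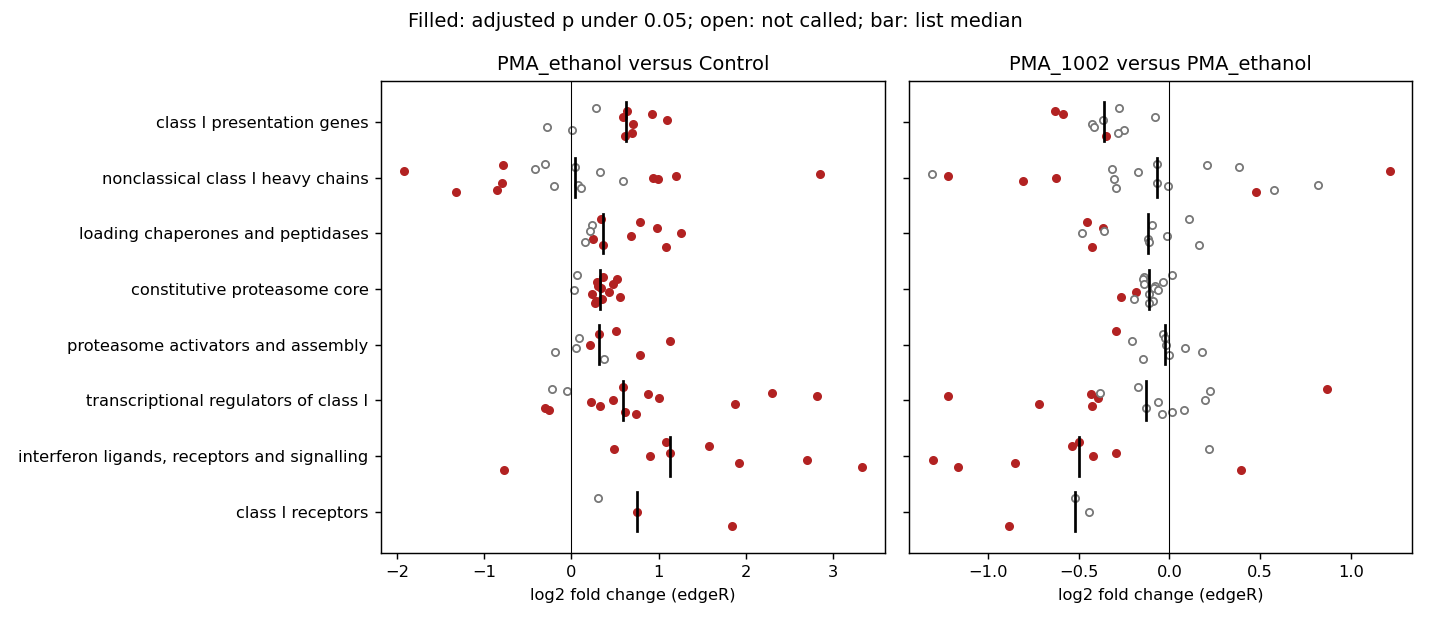
Log2 fold change (horizontal axes) of each tested gene of the 10 presentation genes and 7 companion lists in PMA_ethanol against Control (left) and PMA_1002 against PMA_ethanol (right); filled points were called at an adjusted p under 0.05 and bars give list medians. The list of interferon ligands, receptors and signalling, whose ligands were not tested, has the largest median shift on the left (1.14). The nonclassical heavy chains spread to both sides of 0 in both panels.

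For each gene the tested genes of most similar profile were ranked by the root mean square difference of centred log2 CPM over the 15 libraries, among 12270 genes of at least 5 CPM. Tapbp had the closest neighbours, Rrbp1 (0.09), Ctdnep1 (0.10) and Inpp5a (0.10), against its own spread of 0.26. H2-K1 had Pde1a (0.15), H2-Q4 (0.15) and Prss12 (0.17) against 0.43, and H2-D1 had Aldh3b1 (0.24), H2-Bl (0.24) and Clec4a3 (0.27) against 0.46. Psmb10 had Prpf31 (0.17), Irf5 (0.18) and Erap1 (0.18) against 0.49, and Psmb8 had Rnf114 (0.20), Parp12 (0.20) and Bzw2 (0.22) against 0.38. Tap2 had Ppp1r9b, Rara and Atp6v0a1 (0.16 each) against 0.33, and Tap1 had among its nearest Chst15 (0.18) and Rpl35 (0.19) against 0.27. Nlrc5 had Spryd4 (0.19), Ints12 (0.20) and Dph5 (0.20) against 0.37. B2m had Zdhhc2 (0.20) against 0.30, and Psmb9 had Ogg1 (0.25) against 0.41. No gene of the 10 was among these candidates by the rule. The spread of libraries within a group was itself shared: PMA_ethanol library 2 held the highest value of its group for 8 of the 10 genes and library 1 the lowest for 7, Control library 2 the highest for 7, and PMA_1002 library 1 the lowest for 7. PMA_ethanol library 2 also held the highest hair follicle (3146 CPM), the highest monocyte and macrophage (1972) and the lowest muscle (370) and neutrophil (1036) marker sums of its group, whose part in these values was not tested.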

How the data were processed

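Polyadenylated RNA from 15 ear libraries was sequenced, and per the labels' protocols a strand-preserving kit was used. Each deposited table holds unnormalized counts of reads for 48795 genes, made by the authors. The authors used STAR 2.5 and HTSeq, beside MultiQC 0.8 and FastQC 0.11.5, on GRCm38, per the submitters' processing notes. Neither the strand option nor the annotation release is given. Reads given to no gene, 28.5% to 32.85% of each table (15.98% to 20.12% not unique), stayed out of library sizes. Depth ran from 2656680 to 28585995 reads in genes, which limits Psmb9, Psmb8 and Psmb10 most.

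Symbols came from GENCODE M21 (48349 of 48795 identifiers). Groups came from sample titles. The count model was edgeR 4.0.16 under R 4.3.3 (TMM, filterByExpr by group, robust quasi-likelihood fit of 3 groups over 15 libraries, Benjamini-Hochberg over 14991 genes). The common biological coefficient of variation was 0.185. SE came from the F statistic. Log2 CPM used a prior count of 2. Libraries of 1 group differed by a chi-square per degree of freedom of at least 2.93, so none was counted as repeated sequencing of another. Separate libraries from 1 animal cannot be told apart from libraries of different animals by this value.

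The 10 genes, the gene lists and the tests were chosen with earlier results of these data known. Named beside the 10 genes are up to 3 called genes per list and comparison with the smallest adjusted p, the partners in the ratios, Irf1, Ciita, Ifng, Rfx5, Psme1, Psme2, Erap1 and Calr whatever their result, and the 3 most similar genes of each member, among genes of at least 5 CPM; some genes these rules name are not reported here. Other genes named (H2-T22, H2-Q10, H2-Ab1, Ifnb1, Cd8a) were chosen after their values were seen. Marker lists are given by their summed levels. Simulated counts for PMA_ethanol versus Control held 14584 genes, of which 67 were changed 1.5-fold, 67 were changed 2-fold and 66 were changed 4-fold. The fit called 40.3%, 82.1% and 92.4% of these, and 0.0278% of unchanged genes. In the data 68.4% of genes were called in this comparison, a far larger share, so these rates need not hold there. Ratio tests were checked on simulated data too. Alternatives were DESeq2 1.42.0, other scalings, no filter, fits of 2 groups, a replicate block and leaving out each library.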

Additional observations from a re-analysis of the deposited data

Results flagged for a closer look

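Control library 2 stood apart from the other controls for 2 of the 10 genes, by the gap to its nearest neighbour over the range of the group. H2-K1 was at 356 CPM there against 194 to 222 in the other 4, and Psmb8 was at 25.8 CPM against 17.1 to 18.2. These were the 2 marked among 63 groups of 4 to 6 libraries checked. About 1 in 20 would be marked by chance, so the 2 are no more than chance would give. Without this library H2-K1 passed the threshold between PMA_1002 and Control.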

How the results depend on the processing

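Of the 10 genes in 3 comparisons, the calls of H2-K1, Tap2, Tapbp, Psmb8 and Psmb10 in PMA_ethanol against Control, of H2-K1 and Tapbp between the PMA groups, and of Psmb9 and Psmb10 in PMA_1002 against Control held in every alternative run. Sign changes followed for uncalled differences near 0 and for 1 called one, Psmb7 in PMA_1002 against Control. Tap1 in PMA_ethanol against Control was -0.23 with upper-quartile scaling, -0.22 with no scaling beyond the library total, and -0.24 to 0.12 without each library. In PMA_1002 against Control, upper-quartile scaling and no scaling gave -0.16 and -0.11 for B2m (-0.00195 with 2 groups only, -0.0916 to 0.116 without each library), -0.15 and -0.11 for H2-D1 (-0.14 to 0.13), and -0.096 and -0.056 for Psme2, and upper-quartile scaling gave -0.00426 for Psmb5 and -0.00373 for Psmb7, whose call was also lost with no scaling (0.0364, adjusted p = 0.56). Psme2 in PMA_ethanol against Control was -0.15 and -0.14 (-0.000941 to 0.155 without each library). Between the PMA groups Nlrc5 was 0.0307 with no scaling (-0.138 to 0.00806), Psmb6 0.0204 and Psmb7 0.000776. There Psme1 was 0.0393 and 0.0722 under the 2 scalings (-0.0832 to 0.0225) and Psme2 0.0507 and 0.0827 (-0.0881 to 0.064). The cause was not tested.

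In PMA_1002 against Control, 1 of the 10 genes was higher with upper-quartile scaling and 2 with no scaling, and 2 were lower with upper-quartile scaling, Tap1 and Psmb9. Without each library in turn, 0 to 1 were lower in PMA_ethanol against Control and 2 to 6 in PMA_1002 against PMA_ethanol. The 6, without PMA_ethanol library 1, added Tap2, Psmb8 and Psmb10. The paired ratios that passed numbered 0 to 6 in PMA_ethanol against Control and 0 to 1 between the PMA groups, with 0 whenever a PMA_ethanol library was left out. Per kb of the longest protein-coding transcript, chosen after seeing the data, 4 of 10 genes kept their rank in Control.

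Same-numbered libraries were not more alike: of 13 same-numbered pairs 2 had a correlation of deviations over 0.1 (range -0.53 to 0.58), and 1 library correlated best with its own number. The labels do not say whether the numbers pair libraries, and weak correlations cannot show that they do not. With a replicate block 2 of the 10 genes were lower in PMA_1002 against Control, 0 ratios passed in each comparison because few pairs allow no small p (smallest 0.125, 0.125 and 0.0625), and Tap1 was -0.065 in PMA_ethanol against Control, H2-D1 -0.0788 in PMA_1002 against Control, and Psme1 0.00249 and Psme2 0.0107 between the PMA groups. The block gave 3988 called genes between the PMA groups, against 5244.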
